A study of Mus musculus with 4 samples.

Results

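*Ppara* and 7 enzymes of fatty acid oxidation (*Ehhadh*, *Hsd17b4*, *Acaa1b*, *Scp2*, *Cpt1a*, *Acadm* and *Acsl1*) were followed through all 23 cell clusters of mouse kidney cortex in 4 conditions. The genes were chosen by name with earlier results of these data known, and all 8 had a row among the 19609 gene rows used. Nuclei of 4 male mice of mixed strain were sequenced on the 10x platform in 1 technical batch, with 1 mouse per condition. The control mice carried TRE-hKLF6 alone, a human KLF6 transgene under a tetracycline response element. The hKLF6OE mice carried CAG-rtTA, a transactivator driven throughout the body, together with TRE-hKLF6, so that doxycycline induces human KLF6 globally and not in tubules alone. One mouse of each genotype received no AAI and the other received aristolochic acid I (AAI), a plant toxin that damages the DNA of proximal tubule (PT) cells. By the study's methods, a diet with 200 mg/kg doxycycline was given for 1 week, AAI was given once at 2 mg/kg, and kidneys were taken 24 hours later. The methods name vehicle for control animals, whereas the labels of the mice without AAI read "none".

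PPARalpha, the product of *Ppara*, is a nuclear receptor that is activated by fatty acids and, with an RXR partner, drives genes of fatty acid uptake and oxidation. *Acsl1* joins long-chain fatty acids to coenzyme A, *Cpt1a* controls their entry into mitochondria, and *Acadm* encodes the medium-chain acyl-CoA dehydrogenase of the mitochondrial cycle. The peroxisomal cycle, which shortens very long and branched chains, uses the bifunctional enzymes *Ehhadh* and *Hsd17b4* and the thiolases *Acaa1b* and *Scp2*, the latter also a lipid carrier protein. Proximal tubules live largely on fatty acid oxidation and are rich in peroxisomes, above all in the S3 segment, and loss of this metabolism is a known feature of tubule injury.

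Values were mean normalized expression per 10000 counts over the nuclei of 1 cluster in 1 mouse. Since each condition had 1 mouse, no value has an SD and no test between conditions was made, so each comparison describes these mice. Differences were taken as log2(value + 1), which understates the change of low genes, and a gene was called higher or lower from a difference of 0.2 where the larger value was at least 0.5. All 8 genes passed this minimum in all 8 comparisons. Neither nuclei nor counts per column are in the table, so no counting error could be given. The share of genes at exactly 0, which grows as a mean rests on fewer nuclei or counts, was 15.1% to 23.1% in PT columns without AAI, 21.001% to 31.3% in those with AAI and 18.1% to 63.4% outside PT. Clusters were named by the order of the study's marker sheets. PT, loop of Henle, distal, collecting duct, podocyte and macrophage markers lay where the names place them, with exceptions. The endothelial markers Flt1, Emcn and Pecam1 were highest in EC-2 and next in Macrophage, so they do not bear out the name EC-1. *Slc22a6*, listed for PT, was highest in InjuredPT-A, the mesangial marker *Itga8* was highest in macrophages, and *Gata3* and *Scnn1g* were highest in CD_PC and CNT. The injury marker *Lcn2* stayed at or below a cluster mean of 0.0283. The names from InjuredPT-B to IC-B-2 are less sure than the others. The human transgene had no row, so its induction was not read here, and mouse *Klf6* in normal PT was 0.215 in control, 0.406 in control + AAI, 0.137 in hKLF6OE and 0.327 in hKLF6OE + AAI.

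In the GENCODE annotation of GRCm38, the build named mm10 in the labels, *Ppara* (ENSMUSG00000022383) spans chr15:85734983-85802819 on the plus strand and *Acsl1* (ENSMUSG00000018796) chr8:46471037-46536051 on the plus strand. *Cpt1a* (ENSMUSG00000024900) lies at chr19:3322334-3385733 on the plus strand and *Acadm* (ENSMUSG00000062908) at chr3:153922357-153944632 on the minus strand. Of the peroxisomal genes, *Ehhadh* (ENSMUSG00000022853) lies at chr16:21761287-21787807 on the minus strand, *Acaa1b* (ENSMUSG00000010651) at chr9:119148023-119157093 on the minus strand and *Scp2* (ENSMUSG00000028603) at chr4:108043839-108144998 on the minus strand. *Scp2* shares 52607 bases of its span with *Podn* on the same strand, and *Acaa1b* has a close paralog, *Acaa1a*, so how reads were divided within these pairs is uncertain. The promoter windows of *Ehhadh*, *Scp2* and *Acsl1* are shown because *Ehhadh* was lower in every contrast of condition in normal PT while *Scp2* was higher and *Acsl1* lower with AAI. Each is the 250 bases before the RefSeq start on GRCm38.p6, at chr16:21787835-21788084 (minus strand) for *Ehhadh*, chr4:108118548-108118797 (minus strand) for *Scp2*, inside the GENCODE span of the gene, and chr8:46470787-46471036 (plus strand) for *Acsl1*. Capitals mark AGGTCA, the half-site of many nuclear receptors, or GGGCGG, the GC box that Krüppel-like factors can bind, on either strand.
Ehhadh: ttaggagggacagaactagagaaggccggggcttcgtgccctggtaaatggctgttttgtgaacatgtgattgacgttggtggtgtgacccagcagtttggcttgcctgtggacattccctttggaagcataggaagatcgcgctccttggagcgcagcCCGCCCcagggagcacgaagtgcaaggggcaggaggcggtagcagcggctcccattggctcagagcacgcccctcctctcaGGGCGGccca
Scp2: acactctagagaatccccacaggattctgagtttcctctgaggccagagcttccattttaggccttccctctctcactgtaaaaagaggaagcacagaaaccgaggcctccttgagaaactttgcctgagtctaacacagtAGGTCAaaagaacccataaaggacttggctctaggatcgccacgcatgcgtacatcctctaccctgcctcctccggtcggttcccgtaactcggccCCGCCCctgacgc
Acsl1: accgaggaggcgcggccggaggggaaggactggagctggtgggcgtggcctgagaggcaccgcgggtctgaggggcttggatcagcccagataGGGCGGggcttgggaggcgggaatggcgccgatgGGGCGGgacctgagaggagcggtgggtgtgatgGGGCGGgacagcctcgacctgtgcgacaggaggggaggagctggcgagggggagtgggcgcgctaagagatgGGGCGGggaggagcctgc
The *Ehhadh* window held the GC box at 91 and 10 bases before the start and no half-site. The *Scp2* window held a half-site at 109 bases and a GC box at 13 bases before the start, and the first *Acsl1* window held GC boxes at 157, 123, 90 and 18 bases. The second *Acsl1* window, not shown, held neither motif. Of the other windows not shown, those of *Ppara* and *Cpt1a* held the GC box and those of *Acaa1b* and *Acadm* did not. The half-site was in the windows of *Cpt1a* and *Acadm*, at 94 and 249 bases before the start, and not in those of *Ppara* and *Acaa1b*. Of 32851 RefSeq windows of this length, 32.7% held the GC box and 14% the half-site. The direct repeat of the half-site with any 1 base between its copies, which PPARalpha binds with RXR, was in 0.0335% of windows. It was in none of the 8 windows of the 7 genes searched. *Hsd17b4* was left out of this search. These are matches of letters and not binding sites, and no match says only that the letters are not in the window.

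The 8 genes had different maps in the uninjured and injured kidney. *Ppara* and *Scp2* were highest in PT clusters and low in CNT and CD_PC, though not in DCT_CNT, whereas *Acsl1* and *Cpt1a* were highest in the loop of Henle and the distal convoluted tubule. The ratio of the highest to the lowest cluster mean was 19.3 for *Ppara*, 10.5 for *Acsl1*, 5.50 for *Cpt1a* and 3.79 for *Acadm*. Among peroxisomal genes it was 23.4 for *Scp2*, 10.1 for *Ehhadh*, 7.53 for *Acaa1b* and 3.08 for *Hsd17b4*. Neighbours in the order of cluster means overlapped in their range over the 4 mice in 21 or 22 of 22 pairs, so most single steps in the order are not separated. The breaks lay after PT-S3-2 for *Ppara*, after MC for *Hsd17b4* and after LH-AL-1 for *Acsl1*.

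**Figure D1:**
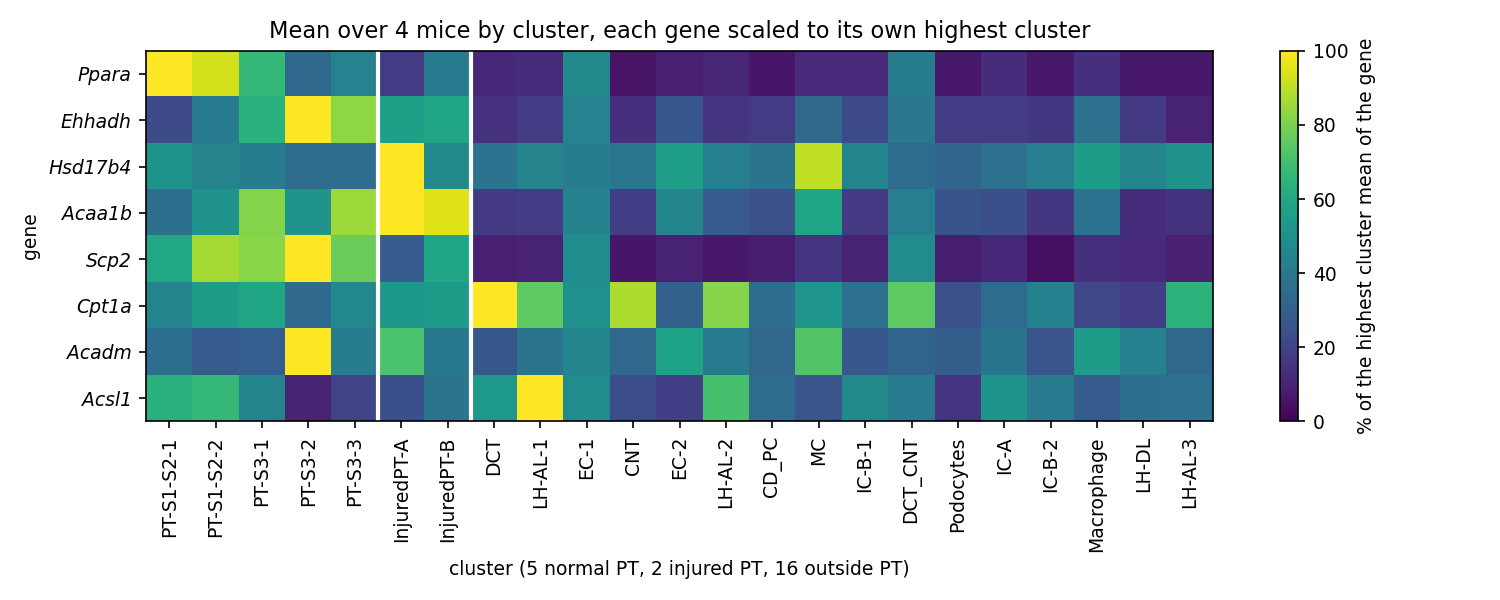
Mean over 4 mice of each gene (rows) in each of 23 clusters (columns), as a percentage of that gene's highest cluster; white lines divide 5 normal PT, 2 injured PT and 16 other clusters. *Ppara* and *Scp2* are high in normal PT, *Acsl1* in LH-AL-1, *Cpt1a* in DCT and *Hsd17b4* in InjuredPT-A and MC.

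*Ppara* was highest in PT-S1-S2-1 (mean 10.6, range 6.17 to 16.5 over mice) and lowest in CNT (0.551, 0.425 to 0.720). *Acsl1* was highest in LH-AL-1, where it was 3.84 in control, 3.71 in control + AAI, 4.08 in hKLF6OE and 3.25 in hKLF6OE + AAI. All 4 mice lay above every value of the next cluster, LH-AL-2 (2.51 to 2.83), and the lowest cluster of *Acsl1* was PT-S3-2 at 0.191 to 0.504. *Cpt1a* was highest in DCT, where the values were 3.26 in control, 3.15 in control + AAI, 2.81 in hKLF6OE and 2.92 in hKLF6OE + AAI, and lowest in LH-DL (mean 0.552). *Acadm* was highest in PT-S3-2 at 5.49, 4.59, 6.25 and 4.37 in the same order of mice, and lowest in IC-B-2 (mean 1.37). Among the 5 normal PT clusters, no *Acadm* value outside PT-S3-2 reached its lowest value there, the highest being 2.28 in PT-S3-3.

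*Ehhadh* was highest in PT-S3-2 at a mean of 7.69, with a range of 2.74 to 14.02 that overlapped the ranges of many clusters, and lowest in LH-AL-3 (0.759). *Scp2* was also highest in PT-S3-2 (3.56, 2.13 to 5.32) and lowest in IC-B-2 (0.152). *Acaa1b* was highest in InjuredPT-A (1.69, 1.19 to 2.38), InjuredPT-B (1.60) and PT-S3-3 (1.44), and it was listed at 0 in 4 columns, all outside PT, with its lowest mean in LH-DL (0.224). *Hsd17b4* (ENSMUSG00000024507, chr18:50128201-50196269, plus strand) was highest in InjuredPT-A (5.30, 2.98 to 7.67) and MC (4.80, 3.94 to 6.24), and the range of MC lay above that of the third cluster, EC-2 (2.94, 2.86 to 3.06), while podocytes had the lowest mean (1.72). By the mean over 4 mice, *Hsd17b4* and *Acaa1b* were the genes of the 8 with their highest cluster in injured PT, which for both rests in part on sparse columns of mice without AAI.

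Compared with the mean of the 16 clusters outside PT in the same mouse, normal PT had higher *Ppara*, *Ehhadh*, *Acaa1b* and *Scp2* in all 4 mice, and no gene of the 8 was lower in all 4. In the background, 42.2% of 4136 genes were called, 20.2% higher and 22% lower, and the median over mice-averaged differences was 0.32 for the 8 genes and -0.038 for all. *Ppara* was 5.10 in normal PT against 1.22 outside in control, 10.7 against 2.04 in control + AAI, 4.92 against 1.10 in hKLF6OE and 8.02 against 1.52 in hKLF6OE + AAI, which gave differences of 1.46, 1.95, 1.49 and 1.84. *Scp2* differed by 1.15, 1.51, 1.06 and 1.62 in the same order. The contrast of *Ehhadh* was largest in control, at 1.45, and smaller in control + AAI (1.14), hKLF6OE (0.80) and hKLF6OE + AAI (0.53). *Acaa1b* differed by 0.38 to 0.61. *Hsd17b4* (-0.17 to -0.049) and *Cpt1a* (-0.21 to 0.026) did not pass in all mice, nor did *Acadm* (0.085 to 0.29) and *Acsl1* (-0.26 to 0.16).

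PT markers were also measured outside PT. The 6 PT markers (*Slc34a1*, *Lrp2*, *Slc5a12*, *Slc5a2*, *Slc22a6* and *Slc13a3*) summed to 78.5 to 109 in normal PT and to 21.6 to 33.0 outside. Their median level, as a percentage of the normal PT level of the same mouse, ranged by cluster from 15.7% in IC-B-2 to 67.6% in DCT_CNT and 77.0% in EC-1. *Ppara* outside PT had a median of 15.5% of its PT level over 64 combinations of cluster and mouse, within the range of the 6 markers in 34 and below it in 30. *Scp2* had a median of 11.41% and was within the range in 21 and below it in 42. *Ehhadh* (37.0%) was within the range in 60 combinations and *Acaa1b* (38.6%) in 53. That range is wide, since *Slc22a6* had a median of 66.8% and the other markers had medians of 16.1% to 34.2%. The medians of *Ehhadh* and *Acaa1b* lay above those of all markers but *Slc22a6*, so lying within the range does not mean following the markers. In contrast, *Acsl1* (100.2%), *Hsd17b4* (99.5%), *Cpt1a* (93.2%) and *Acadm* (74.3%) were above the marker range in 43, 54, 44 and 39 combinations. *Ppara* was highest outside PT in EC-1 (mean 5.06) and DCT_CNT (4.44), the clusters with the highest PT marker level. In EC-1 *Ehhadh* was 6.09 in control, 2.99 in control + AAI, 3.17 in hKLF6OE and 1.33 in hKLF6OE + AAI, so control was highest and hKLF6OE + AAI lowest, as in normal PT. The part of PT marker RNA in the values outside PT was not tested. Without EC-1, DCT_CNT, MC and Macrophage, 4 of the 8 genes were called in normal PT against outside. The share of all genes called against the remaining clusters is not given, so this count has no background.

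**Figure D2:**
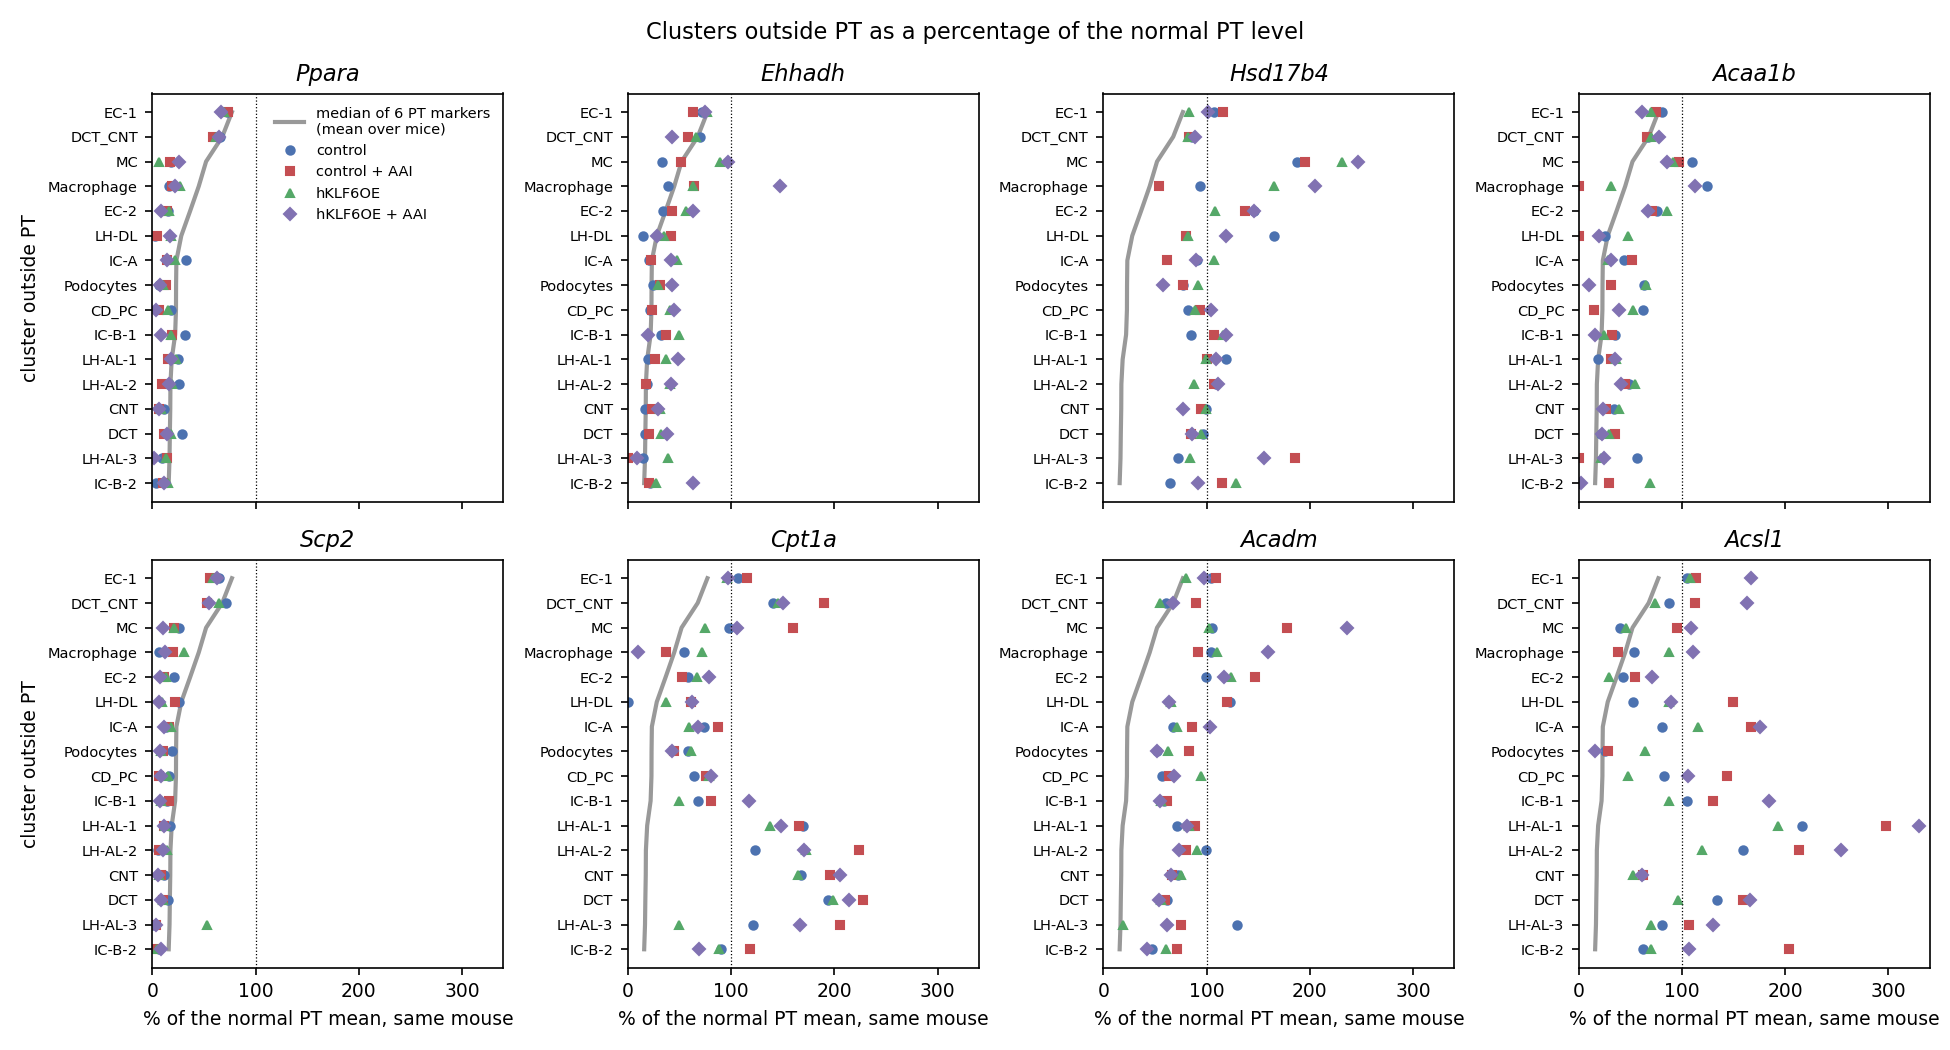
Each of 16 clusters outside PT as a percentage of the normal PT mean of the same mouse (x axis, linear; dotted line, 100%), for each gene and mouse; the grey line is the median of 6 PT markers, averaged over mice. *Ppara* and *Scp2* lie mostly at or left of the markers (medians 15.5% and 11.41%). Some points lie to the right, such as *Ppara* of control in DCT (28.8%) and IC-A (32.3%) and *Scp2* of hKLF6OE in LH-AL-3 (52.95%). *Ehhadh* and *Acaa1b* lie on both sides of them, and *Hsd17b4*, *Cpt1a*, *Acadm* and *Acsl1* mostly to their right.

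Within normal PT, the 3 PT-S3 clusters had higher *Ehhadh*, *Acaa1b* and *Acadm* and lower *Ppara* and *Acsl1* than the 2 PT-S1-S2 clusters in all 4 mice, against a background of 22.8% of 3637 genes called (10.4% higher, 12.4% lower). The median difference was 0.0073 for the 8 genes and -0.0080 for all. *Ehhadh* was 11.24 in PT-S3 against 4.31 in control, 6.37 against 2.32 in control + AAI, 5.42 against 2.25 in hKLF6OE and 2.27 against 1.02 in hKLF6OE + AAI, so its difference ranged from 0.70 to 1.20. The difference of *Acadm* was 0.36 to 0.73 and that of *Acaa1b* 0.31 to 0.40. *Ppara* lay in the opposite direction, at 3.88 in PT-S3 against 6.93 in PT-S1-S2 in control and 7.05 against 16.2 in control + AAI, with differences of -1.09 to -0.46 over mice. *Acsl1* was lower by 0.74 to 0.93 on the log2 scale. *Scp2* differed by -0.19 to 0.61, *Hsd17b4* by -0.28 to -0.16 and *Cpt1a* by -0.32 to 0.11, without passing in all mice. The receptor and the peroxisomal enzyme *Ehhadh* were thus high at opposite ends of the PT in each mouse.

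AAI was compared with no AAI in the mean of the 5 normal PT clusters, which asks how PT cells outside the injured clusters responded within 24 hours. *Ppara* and *Scp2* were higher with AAI in both genotypes, and *Ehhadh* and *Acsl1* were lower in both. In the control genotype these were the 4 genes called of 8, against 23% of 4052 genes in the background, in either direction. In the hKLF6OE genotype *Hsd17b4* was lower as well, so that 5 of 8 were called against 34.9% of 4133 (19.5% higher, 15.4% lower). The median difference was 0.0084 for the 8 genes and 0.0067 for all genes in control, and -0.11 and 0.045 in hKLF6OE.

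*Ppara* was 5.10 in control and 10.7 in control + AAI, a difference of 0.94, and 4.92 in hKLF6OE and 8.02 in hKLF6OE + AAI, a difference of 0.61. The difference ranked 19 of 4052 genes from the highest in control and 108 of 4133 in hKLF6OE. It was higher with AAI in 5 of 5 normal PT clusters in control (0.29 to 1.29) and in 4 of 5 in hKLF6OE (0.12 to 0.89), with the smallest difference in PT-S3-3 and the largest in PT-S1-S2-2 in both. In these clusters 15.7% of pairs of gene and cluster were called higher in control and 22.7% in hKLF6OE. The difference of the 2 AAI differences was -0.33 and was not tested.

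*Scp2* was 2.25 in control and 3.58 in control + AAI, and 2.00 in hKLF6OE and 3.74 in hKLF6OE + AAI, with differences of 0.49 and 0.66. The lowest differences were in PT-S1-S2-1 (0.062 and 0.32). *Acsl1*, which feeds both cycles, was 1.77 in control against 1.25 with AAI, and 2.11 in hKLF6OE against 0.988 with AAI, differences of -0.30 and -0.65. In hKLF6OE *Acsl1* was lower in 5 of 5 normal PT clusters, where 18.1% of pairs of gene and cluster were called lower. In control it was lower in 3 of 4 tested, against 15.1%. In PT-S3-3 of hKLF6OE it stood at 1.47 without and 0.335 with AAI. *Acsl1* was lower in 15 of 23 clusters of hKLF6OE with AAI, where 26.2% of all pairs of gene and cluster were called lower, and in 6 of 21 tested in control, where 25.2% were.

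*Ehhadh* was 8.47 in control and 4.75 in control + AAI, and 4.15 in hKLF6OE and 1.77 in hKLF6OE + AAI. The differences of -0.72 and -0.89 ranked 30 of 4052 and 32 of 4133 genes from the lowest. *Ehhadh* was lower with AAI in 5 of 5 normal PT clusters in both genotypes, where 15.1% of pairs of gene and cluster were called lower in control and 18.1% in hKLF6OE. The receptor and this classical target gene therefore differed in opposite directions with AAI in each genotype. *Hsd17b4* was 2.10 against 2.14 with AAI in control (0.018) and 2.70 against 1.96 in hKLF6OE (-0.32). *Acaa1b* differed by 0.15 and -0.082, *Cpt1a* by -0.17 and -0.031, and *Acadm* by -0.0011 and -0.14, none past the threshold. The PT marker sum also differed with AAI, from 109 to 84.0 in control and from 89.5 to 78.5 in hKLF6OE, as did the share of genes at 0, and their part in these differences was not tested.

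**Figure D3:**
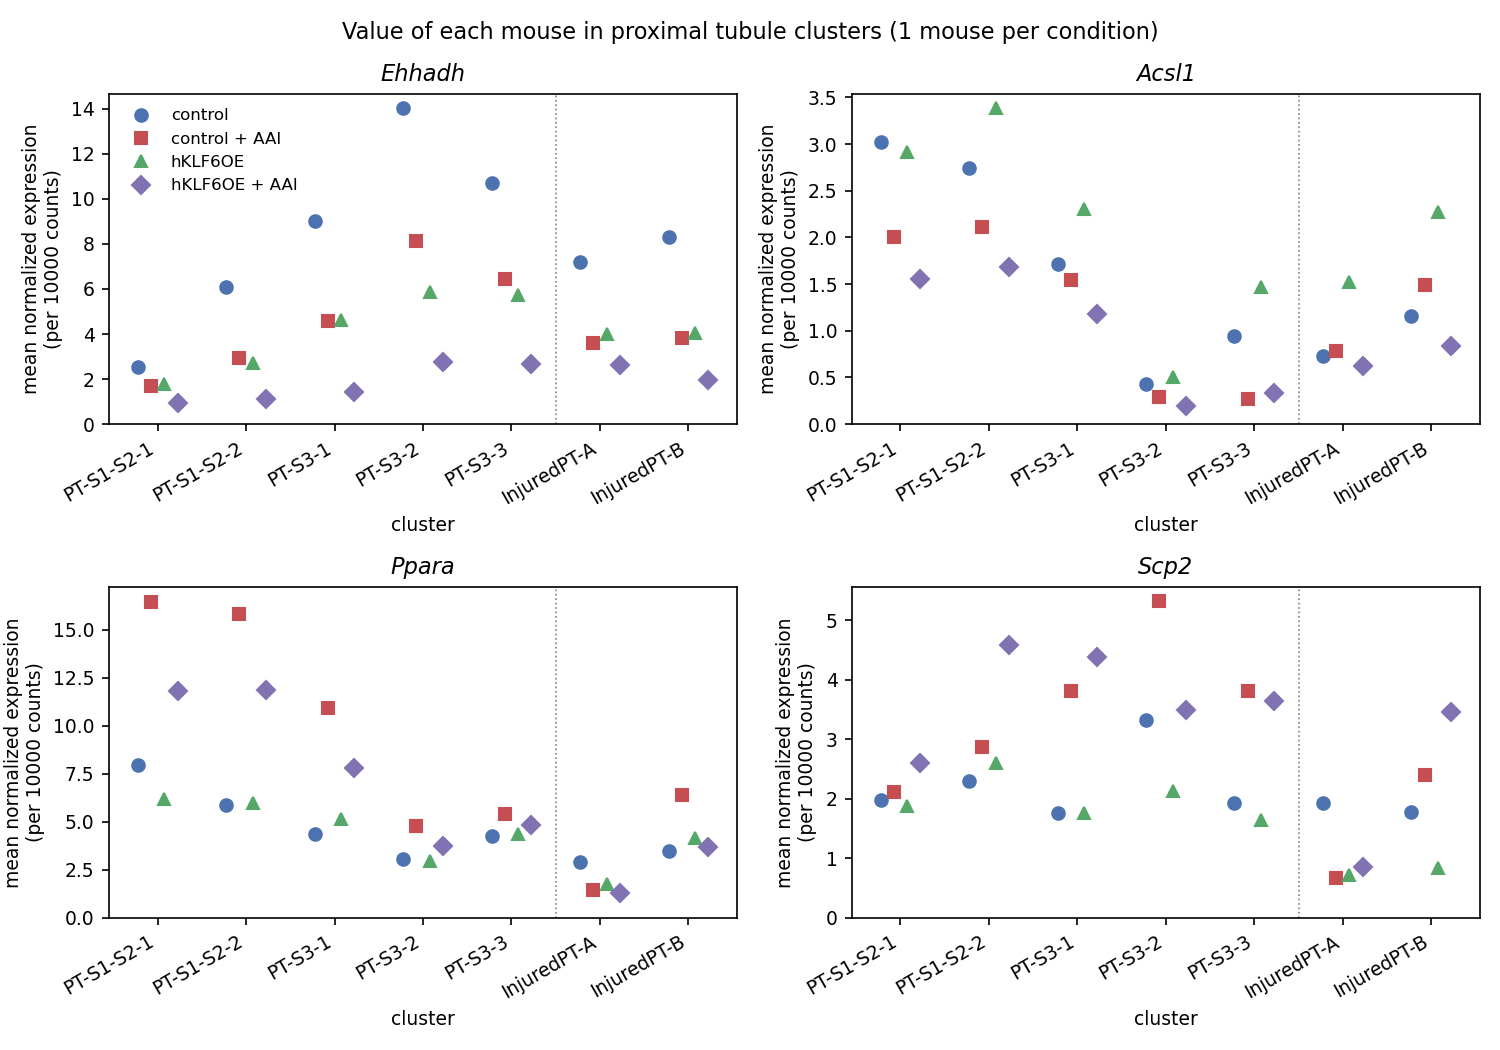
Mean normalized expression per 10000 counts (y axis, linear) of *Ehhadh*, *Acsl1*, *Ppara* and *Scp2* in 5 normal PT and 2 injured clusters (x axis), with 1 point per mouse. *Ehhadh* is highest in control and lowest in hKLF6OE + AAI in all 7 clusters (14.02 and 2.74 in PT-S3-2), and *Ppara* in PT-S1-S2 clusters is highest in control + AAI.

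In hKLF6OE without AAI, normal PT had lower *Ehhadh* and higher *Hsd17b4* than in control. With a pseudocount of 0.1 in place of 1, *Cpt1a* (-0.23) and *Acsl1* (0.24) passed the threshold as well, 4 of 8 in all. No share of all genes is given for that setting, so the 4 of 8 has no background. The 2 of 8 compare with 17.2% of 4041 genes called (7.84% higher, 9.33% lower), and the median difference was -0.034 for the 8 genes and -0.026 for all. *Ehhadh* was 8.47 in control and 4.15 in hKLF6OE, a difference of -0.88, which ranked 5 of 4041 genes from the lowest. It was lower in 5 of 5 normal PT clusters, by 0.34 in PT-S1-S2-1 to 1.13 in PT-S3-2 on the log2 scale, where 11.9% of pairs of gene and cluster were called lower. *Hsd17b4*, the other bifunctional enzyme, was 2.10 in control and 2.70 in hKLF6OE, a difference of 0.26. It was called higher in 3 of 5 normal PT clusters, against 9.39% of pairs of gene and cluster, and in 13 of all 23, against 22.4%.

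Both bifunctional enzymes of the peroxisome thus lay on opposite sides of control in the hKLF6OE mouse. *Acsl1* differed by 0.17, *Acadm* by 0.10, *Acaa1b* by -0.025, *Ppara* by -0.043, *Scp2* by -0.12 and *Cpt1a* by -0.15. The PT marker sum was 109 in control and 89.5 in hKLF6OE.

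With AAI, the hKLF6OE mouse had lower *Ppara*, *Ehhadh* and *Acaa1b* than the control mouse, and none of the 8 genes was called higher. The background was 14.1% of 3942 genes called (6.32% higher, 7.74% lower), and the medians were -0.13 for the 8 genes and 0.015 for all. *Ehhadh* was 4.75 in control + AAI and 1.77 in hKLF6OE + AAI, and the difference of -1.05 was the lowest of 3942 genes. It was lower in 5 of 5 normal PT clusters (-1.29 to -0.49), where 11.8% of pairs of gene and cluster were called lower. *Ppara* was 10.7 in control + AAI and 8.02 in hKLF6OE + AAI (-0.38), lower in 4 of 5 clusters, and *Acaa1b* was 1.25 and 0.879 (-0.26), lower in 4 of 5. *Acsl1* differed by -0.18, *Hsd17b4* by -0.083, *Acadm* by -0.036, *Cpt1a* by -0.0094 and *Scp2* by 0.048. These contrasts share mice with those of AAI, so they are not independent of them.

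Taking the 4 mice side by side, *Ehhadh* in normal PT was lowest where both conditions met. Control stood at 8.47, the mice with 1 condition at 4.75 and 4.15, and hKLF6OE + AAI at 1.77, a ratio of 4.78 between the ends and a difference of -1.77. The AAI difference was -0.72 in control and -0.89 in hKLF6OE, and the difference between these, -0.17, was not tested. The same order of control first and hKLF6OE + AAI last held in each of the 5 normal PT clusters, from 14.02 to 2.74 in PT-S3-2, 10.7 to 2.65 in PT-S3-3, 9.003 to 1.43 in PT-S3-1, 6.08 to 1.11 in PT-S1-S2-2 and 2.54 to 0.934 in PT-S1-S2-1. Over all 23 clusters, *Ehhadh* was called lower in 19 with AAI in control (25.2% of pairs of gene and cluster called lower) and in 21 with AAI in hKLF6OE (26.2%). It was lower in 14 with hKLF6OE without AAI (27.4%), and in 19 of 22 tested with hKLF6OE under AAI (23.8%). Without AAI, hKLF6OE also had *Ehhadh* higher in 2 clusters (22.4% of pairs called higher). In that contrast it was lower in 7 of the 16 clusters outside PT and higher in 2. There, a median of 29.9% of genes per cluster was called lower and 22.3% higher. Outside PT, its level mostly lay within the range of the PT markers, which is wide.

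**Figure D4:**
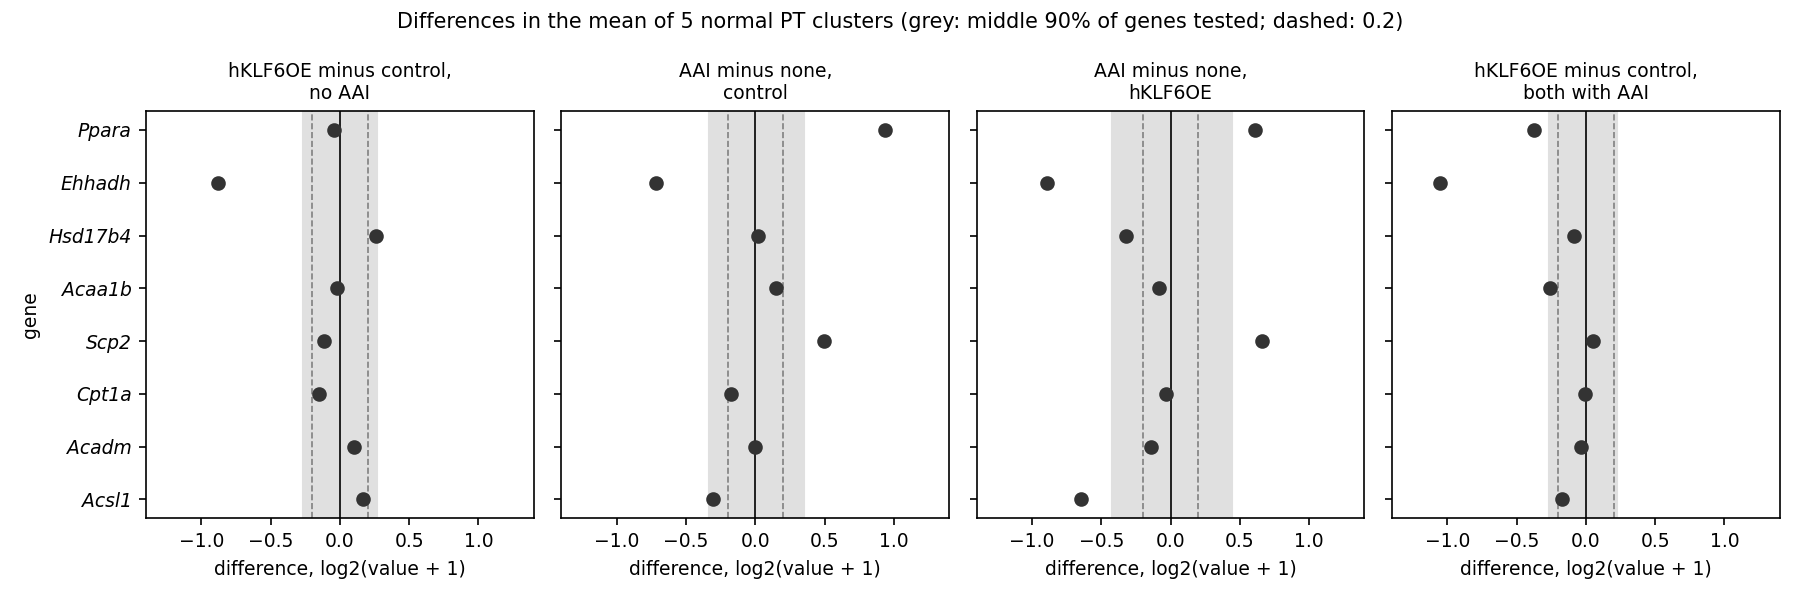
Difference of log2(value + 1) (x axis) of each gene in the mean of 5 normal PT clusters for 4 contrasts of 1 mouse with 1 mouse; grey marks the middle 90% of all genes tested and dashed lines the threshold of 0.2. *Ehhadh* lies left of the grey band in all 4 contrasts (-1.05 to -0.72), and *Ppara* and *Scp2* lie right of it in both AAI contrasts.

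InjuredPT-A and InjuredPT-B were compared with normal PT of the same AAI-treated mouse. The clusters were made from these same values, so what follows is a description. In InjuredPT-A, *Ppara*, *Scp2* and *Acsl1* were lower in both mice and *Hsd17b4*, *Acaa1b* and *Acadm* were higher, against 70.2% of 5008 genes called (43.3% higher, 27% lower). The median difference was -0.077 for the 8 genes and 0.17 for all. *Ppara* was 1.43 in InjuredPT-A against 10.7 in normal PT of the control + AAI mouse, and 1.30 against 8.02 in the hKLF6OE + AAI mouse, differences of -2.27 and -1.97. *Scp2* was 0.670 against 3.58 and 0.859 against 3.74 (-1.46 and -1.35). Both genes lay below the 5th percentile of all genes in each mouse, which was -1.16 in control + AAI and -1.09 in hKLF6OE + AAI.

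*Hsd17b4* was 2.98 against 2.14 in InjuredPT-A of the control + AAI mouse and 3.24 against 1.96 in that of the hKLF6OE + AAI mouse (0.34 and 0.52). *Acadm* was 3.05 against 2.41 and 3.37 against 2.33 (0.25 and 0.39), and *Acaa1b* was 1.77 against 1.25 and 1.19 against 0.879 (0.30 and 0.22). The median over all genes in this comparison was 0.19 and 0.15, and the 95th percentile was 1.07 and 1.03. Of all genes tested, 60.6% and 76.9% lay below *Hsd17b4*, 53.4% and 67.4% below *Acadm* and 57.4% and 55.3% below *Acaa1b*. None of these 3 genes was thus near the upper end of all genes. *Ehhadh* was 3.60 against 4.75 in control + AAI and 2.62 against 1.77 in hKLF6OE + AAI, so it lay on opposite sides in the 2 mice (-0.32 and 0.38). *Acsl1* differed by -0.33 and -0.30, and against the 3 PT-S3 clusters alone, where *Acsl1* is low, its mean difference was 0.056. *Cpt1a* differed by -0.058 and -0.15. The sum of the 6 PT markers was 27.0 and 41.5 in InjuredPT-A of the AAI-treated mice, against 84.0 and 78.5 in their normal PT.

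In InjuredPT-B, *Ppara* and *Acadm* were lower and *Acaa1b* was higher in both mice, against 36.5% of 4148 genes called (23.4% higher, 13.1% lower), with medians of -0.025 for the 8 genes and 0.11 for all. *Ppara* was 6.38 against 10.7 and 3.68 against 8.02, differences of -0.66 and -0.95, each below the 5th percentile of all genes (-0.56 and -0.63). *Acaa1b* was 2.00 against 1.25 and 1.21 against 0.879, and *Acadm* was 1.86 against 2.41 and 1.81 against 2.33. *Scp2* differed by -0.43 and -0.091, *Ehhadh* by -0.26 and 0.10, *Cpt1a* by 0.31 and 0.16, *Hsd17b4* by 0.19 and 0.13 and *Acsl1* by 0.15 and -0.12. PT markers summed to 37.7 and 28.4 there. Of the 8 genes, *Ppara* was called lower in both injured clusters and *Acaa1b* higher in both, and no other was called the same way in both. The median of all genes lay above 0 in both clusters, and these calls were not centred on it. Of all genes tested, 57.4% and 55.3% lay below *Acaa1b* in InjuredPT-A of the 2 mice, near the middle, and 92.5% and 71.7% in InjuredPT-B.

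**Figure D5:**
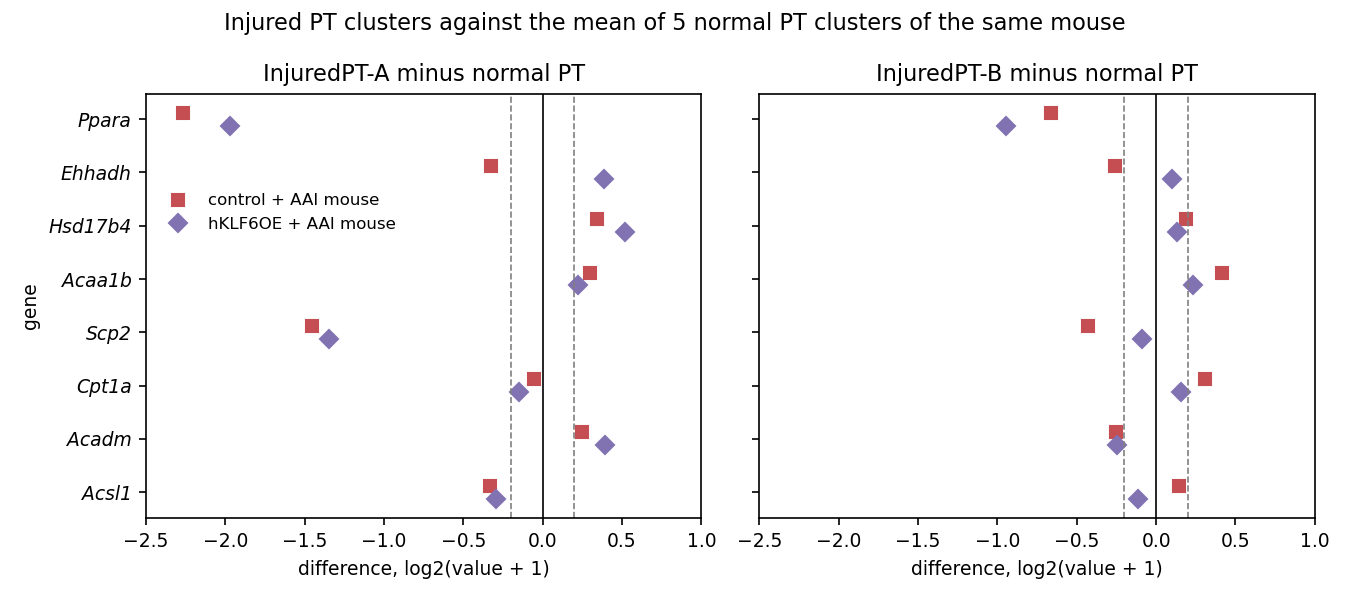
Difference of log2(value + 1) (x axis) between each injured cluster and the mean of 5 normal PT clusters of the same AAI-treated mouse; dashed lines mark the threshold of 0.2. *Ppara* lies far left in InjuredPT-A (-2.27 and -1.97) and left in InjuredPT-B (-0.66 and -0.95), while *Acaa1b* lies right in both.

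Columns of the injured clusters in mice without AAI had 40.8% to 62.6% of genes at 0, against 22.2% to 29.7% with AAI, so their values rest on less data. There, *Hsd17b4* in InjuredPT-A was 7.67 in control and 7.33 in hKLF6OE, against 2.98 and 3.24 with AAI. Its mean over mice in that cluster, the highest of any, thus rests on those columns, and among the AAI-treated mice *Hsd17b4* was higher in MC (4.17 and 4.84) than in InjuredPT-A. *Acaa1b* in InjuredPT-A was 2.38 in control and 1.41 in hKLF6OE, and with AAI its 1.77 and 1.19 lay below PT-S3-1 of control + AAI (1.80) and PT-S3-3 of hKLF6OE + AAI (1.23).

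Outside PT, *Acadm* and *Ppara* in MC were higher with AAI in both genotypes. MC was not alone in this, since *Ppara* was also higher in DCT_CNT (0.74 in control and 0.62 in hKLF6OE), EC-1 (0.91 and 0.52) and Macrophage (0.73 and 0.28). *Acadm* was also higher in IC-A (0.23 and 0.23). *Acadm* in MC was 2.54 in control and 4.29 in control + AAI, and 2.74 in hKLF6OE and 5.49 in hKLF6OE + AAI, differences of 0.58 and 0.80, where 35.2% and 37.1% of genes were called higher. *Ppara* in MC was 0.924 and 1.82, and 0.293 and 2.02 (0.55 and 1.22). The MC values were chosen for naming after they were seen. PT markers in MC stood at 52.0% of the normal PT level, which is no test of the source of these values.

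Genes of the peroxisomal cycle, a list that includes *Ehhadh*, *Hsd17b4*, *Acaa1b* and *Scp2*, were mostly higher in PT than outside. Of 24 listed peroxisomal genes, 23 were in the table, and 13 of 16 that passed the minimum were higher in normal PT than outside in all 4 mice (20.2% of all genes), with a median difference of 0.56 to 0.70 over mice against -0.059 to -0.017 for all genes. *Pecr*, a peroxisomal enoyl-CoA reductase, was 9.11 in PT against 2.44 outside in control. *Slc27a2*, which activates very long chains, was 19.3 against 7.72. In PT-S3 against PT-S1-S2, 8 of 15 were higher (10.4% of all genes) and none was lower, among them *Crot*, the carnitine octanoyltransferase, at 3.56 against 1.08 in control.

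With AAI, 3 peroxisomal genes were higher and 6 of 16 lower in control, where 23% of all genes were called in either direction. In hKLF6OE 1 was higher and 8 of 16 lower (19.5% and 15.4% of all genes), with medians of -0.038 (all genes 0.0067) and -0.17 (all genes 0.045). *Pecr* was 9.11 and 4.63 with AAI in control and 6.34 and 3.98 in hKLF6OE. *Eci3*, an enoyl-CoA isomerase, was 2.72 in hKLF6OE and 0.883 in hKLF6OE + AAI. Between genotypes, 1 of 15 was higher and 4 lower without AAI (7.84% and 9.33% of all genes), *Pecr* (-0.46) and *Amacr* (-0.26), the racemase for branched chains, among the lower, and 0 of 16 higher and 7 lower with AAI (6.32% and 7.74%). The median with AAI was -0.18 against 0.015 for all genes. Of the same 16, InjuredPT-A had 3 higher and 7 lower (43.3% and 27% of all genes) and InjuredPT-B had 1 higher and 6 lower (23.4% and 13.1%), with *Slc27a2* lower in both (17.8 in normal PT, 4.84 in InjuredPT-A and 9.03 in InjuredPT-B of the control + AAI mouse).

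The mitochondrial list had 24 genes, *Cpt1a* and *Acadm* among them, and 23 were in the table. None of 13 that passed was called in either direction in hKLF6OE without AAI (17.2% of all genes called), with a median of 0.094, and 2 of 14 were higher and none lower with AAI in control (23% of all genes called in either direction), with a median of 0.054. With AAI in hKLF6OE, 1 of 13 was higher and 3 were lower (19.5% and 15.4% of all genes), among them *Acadl*, a long-chain dehydrogenase, at 0.975 and 0.610. Between genotypes with AAI, 0 of 14 were higher and 2 lower (6.32% and 7.74%), and *Slc25a20*, the carnitine carrier, was 0.662 and 0.396. In InjuredPT-A, 8 of 16 were higher, near the 43.3% of all genes, and 1 lower (27%), with medians of 0.25 and 0.30 in the 2 mice against 0.19 and 0.15 for all genes. *Eci1*, the mitochondrial enoyl-CoA isomerase, was 0.392 in normal PT and 1.11 in InjuredPT-A of control + AAI, *Cpt2* 0.693 and 1.29, and *Hadha* 0.614 and 1.09. In InjuredPT-B 2 of 11 were lower and 0 higher (13.1% and 23.4%). Against clusters outside PT 2 of 11 were higher (20.2%), *Acad10* and *Acad11*, and in PT-S3 2 of 12 (10.4%), *Acad10* and *Acadm*.

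Genes of fatty acid uptake, binding and activation (21 listed, 20 in the table, *Acsl1* among them) lay on both sides. With AAI, *Cd36*, a fatty acid translocase, was 1.51 and 3.31 in control and 1.58 and 3.56 in hKLF6OE, and *Acsl4*, a synthetase for arachidonate, was also higher in both. In total 2 of 10 were higher and 3 lower in control (23% of all genes called in either direction). In hKLF6OE 2 of 10 were higher and 6 lower (19.5% and 15.4% of all genes), where *Acsm2*, a medium-chain synthetase, was 26.6 and 16.3 and *Dbi*, an acyl-CoA binding protein, 2.71 and 1.20. Between genotypes, 1 of 9 was higher (*Dbi*) and 1 lower (*Acsm2*) without AAI, against 7.84% and 9.33% of all genes, and 0 of 10 higher and 3 lower with AAI (6.32% and 7.74%). In InjuredPT-A 2 of 10 were higher and 7 lower (43.3% and 27% of all genes), with *Cd36* at 1.27 against 3.31 in control + AAI, while InjuredPT-B had 2 of 10 higher and 5 lower (23.4% and 13.1%). The median of this list was -0.11 with AAI in control and -0.35 in hKLF6OE (all genes 0.0067 and 0.045), and -0.049 and -0.082 between genotypes without and with AAI. Against clusters outside PT 6 of 10 were higher and 1 lower (20.2% and 22%), and in PT-S3 5 of 9 were higher and 1 lower (10.4% and 12.4%), the last *Acsl1*.

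Among 22 PPAR receptors, partners and coactivators, all in the table, *Ppara* had the highest difference with AAI in both genotypes. With AAI 3 of 15 were higher and 1 lower in control, where 23% of all genes were called in either direction, and 6 of 15 higher and none lower in hKLF6OE (19.5% and 15.4% of all genes). Between genotypes 0 of 15 were higher and 1 was lower both without AAI (*Esrrg*) and with AAI (*Ppara*), against 9.33% and 7.74% of all genes lower. *Esrrg*, an orphan receptor of oxidative metabolism, was 32.4 and 40.2 with AAI in control. *Ppargc1a*, the coactivator of mitochondrial biogenesis, was 1.98 and 2.11 in control and 1.95 and 2.24 in hKLF6OE, below the threshold. The partner *Rxra* was 0.218 in control, 0.144 in control + AAI, 0.193 in hKLF6OE and 0.177 in hKLF6OE + AAI, below the minimum. In InjuredPT-A 3 of 16 were higher and 8 lower (43.3% and 27% of all genes), with *Esrrg* at 3.17 against 40.2 and *Ppargc1a* at 1.02 against 2.11 in control + AAI, while InjuredPT-B had 3 of 15 higher and 3 lower (23.4% and 13.1%). The median of this list was 0.025 with AAI in control and 0.18 in hKLF6OE (all genes 0.0067 and 0.045). Against clusters outside PT 4 of 16 were higher and 3 lower (20.2% and 22%), with *Ppargc1a* lower in PT (1.98 against 4.78 in control), and in PT-S3 none of 14 was higher and 2 were lower (10.4% and 12.4%), *Ppara* and *Ppargc1a*.

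Across the 23 clusters, the 8 genes did not form 1 pattern. On the mean over mice of log2(value + 1), Pearson's r was 0.92 between *Ppara* and *Scp2*, 0.87 between *Ehhadh* and *Acaa1b* and 0.82 between *Ehhadh* and *Scp2*, and it was lowest between *Acadm* and *Acsl1* at -0.50. Clusters share libraries and were defined from these values, so r is a description. Among 8112 genes compared, those most like *Ppara* were *Nr1h4* (0.97), the bile acid receptor gene, *Slc18a1* (0.97) and *Fggy* (0.96). Most like *Ehhadh* were *Ugt3a1* (0.97), *Mogat1* (0.97) and *Slc22a12* (0.96), the urate transporter gene, and most like *Scp2* were *B3gat2* (0.99), *Hnf4aos* (0.98) and *Slc6a20b* (0.98). *Acaa1b* was nearest to *Serpinf2* (0.95), *Amacr* (0.95) and *Slc22a12* (0.94), and *Acadm* to *Napsa* (0.95), *Serpina1f* (0.88) and *Mep1a* (0.84). The genes nearest to *Acsl1* were *Cgnl1* (0.89), *Tln2* (0.83) and *0610040J01Rik* (0.83), to *Hsd17b4* *Slc25a39* (0.93), *Lamp1* (0.92) and *Tpi1* (0.92), and to *Cpt1a* *Ggnbp1* (0.87), *Slc25a30* (0.85) and *Ppp5c* (0.85).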

How the data were processed

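Nuclear RNA of kidney cortex from 4 male mice, 1 per condition, was analysed. Per the labels, reads were processed with Cell Ranger and Seurat on mm10, and by the study's methods on a pre-mRNA reference, which counts intronic reads and so favours long genes. Nuclei with under 200 or over 6000 genes or over 10% mitochondrial genes were left out, and no doublet step for RNA is given. The deposited signal values are linear means of normalized expression, 1 per cluster and mouse. Their scale, counts per 10000, was read from the values, since each of 92 columns sums to 10000. Of 19632 rows, 23 with date-like names were left out. Depth per column is unknown. Groups came from sample titles.

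Computed here were unweighted means over 5 normal PT, 3 PT-S3, 2 PT-S1-S2 or 16 outside clusters, differences with a pseudocount of 1, a minimum of 0.5 and a threshold of 0.2, where every mouse of a within-mouse comparison had to pass. The genes and 8 gene lists (148 genes, 141 in the table) were chosen with earlier results of these data known. Named list genes are up to 3 largest rises and falls per list and comparison plus a fixed set that includes *Cpt2*, *Hadha*, *Ppargc1a* and *Rxra*, and likeness names the top 3 by r. Some genes these rules name are not reported here. Scripts were tested on simulated data. Python 3.11.15, numpy 2.4.6, pandas 2.3.3 and matplotlib 3.10.9 were used. Alternatives were another pseudocount, minimum, threshold, reference and mouse set, and centring on the median of all genes. Leaving out 4 clusters rich in PT markers (EC-1, DCT_CNT, MC and Macrophage) was added after the data were seen. The paper's supplementary tables served for cluster names alone.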

Additional observations from a re-analysis of the deposited data

Results flagged for a closer look

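*Ehhadh* in InjuredPT-A lay on opposite sides of normal PT in the 2 AAI-treated mice, with a log2 difference of -0.32 in control + AAI (3.60 against 4.75) and of 0.38 in hKLF6OE + AAI (2.62 against 1.77). The genotypes thus differed by 0.71 in this contrast. The difference was not tested, since each genotype had 1 AAI-treated mouse. Normal PT itself differed more between these mice (4.75 and 1.77) than InjuredPT-A did (3.60 and 2.62), on the scale of the values.

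The hKLF6OE difference from control passed 0.2 both without and with AAI, with opposite signs, for 2 genes in normal PT clusters. Of all pairs of gene and cluster there, 9.39% were called higher without AAI and 11.8% lower with AAI. The share of all pairs with opposite signs is not given, so the 2 genes have no background. *Acsl1* in PT-S3-1 was higher in hKLF6OE without AAI (2.30 against 1.71, 0.28) and lower with AAI (1.17 against 1.55, -0.23), so the contrasts differed by -0.51. In PT-S1-S2-2, *Acsl1* was 3.38 against 2.74 without and 1.68 against 2.11 with AAI, a difference of -0.44 between contrasts. *Acaa1b* in PT-S1-S2-1 was 0.685 against 0.455 without and 0.501 against 0.848 with AAI, with -0.51 between contrasts. Both genes lay above control without AAI and below it with AAI in these clusters. Opposite signs with at least 1 difference under 0.2 were also seen, as for *Hsd17b4* in all 5 normal PT clusters (0.36 and -0.19 in PT-S1-S2-1).

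In InjuredPT-B the signs also differed, past 0.2 on both sides, for *Ppara*, *Acsl1* and *Scp2*. Between genotypes in this cluster, 35.9% of all genes were called higher and 35.8% lower without AAI, and 17.6% and 18.5% with AAI. The share of all genes with opposite signs is not given, so the count of these genes has no background. *Ppara* was 4.16 against 3.46 without AAI and 3.68 against 6.38 with AAI (-0.87 between contrasts), and *Acsl1* was 2.27 against 1.16 and 0.834 against 1.49 (-1.03). *Scp2* lay the other way, at 0.834 against 1.78 without AAI and 3.45 against 2.40 with AAI (0.99). The InjuredPT-B columns of the mice without AAI had 51.3% and 55.7% of genes at 0. None of these differences was tested, since each condition had 1 mouse.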

How the results depend on the processing

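Over all alternatives, 59 of 70 counts of genes called stayed within 1.5 times the main count, and of 560 values of single genes 500 kept direction and call, 37 kept direction but lost the call, 22 gained it and 1 reversed. A threshold of 0.5 gave 1 gene for hKLF6OE without AAI (2 in the main setting), 2 for AAI in control (4), 1 for hKLF6OE with AAI (3), 2 for InjuredPT-A (6), 1 for InjuredPT-B (3) and 2 for PT-S3 (5). A pseudocount of 0.1 gave 4 for hKLF6OE without AAI. A minimum of 2 gave 2 for normal PT against outside (4) and 3 for PT-S3. PT-S3 clusters as the reference gave 3 for InjuredPT-A, with *Acsl1* reversed at 0.056 (mean of 2 mice), and the control + AAI mouse alone gave 6 for InjuredPT-B. Leaving out the 4 clusters rich in PT markers kept the count for normal PT against outside at 4. No share of all genes is given for any of these alternatives, so their counts have no background. The causes were not tested. No paired analysis was possible because each group had 1 mouse and the labels give no replicate numbers, and leaving out a replicate was not possible for the same reason. With 1 mouse per condition, genotype, treatment and animal cannot be told apart, and no value has a counting interval.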

Other observations

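Textbook PPARalpha targets (27 listed, 25 in the table) did not differ as 1 group in normal PT. With AAI in control, 2 of 11 that passed the minimum were higher and 5 lower (23% of all genes called in either direction), 5 of the listed genes being among the 8 described above (*Ehhadh*, *Acaa1b*, *Cpt1a*, *Acadm* and *Acsl1*). *Cyp4a10*, a fatty acid omega-hydroxylase, was 0.550 and 0.902, and *Plin2*, a lipid droplet coat protein, 0.363 and 0.619, while *Cyp4a12a* was 1.20 and 0.414 and *Me1*, malic enzyme, 3.49 and 2.24. In hKLF6OE 0 of 11 were higher and 5 lower with AAI (19.5% and 15.4% of all genes). Between genotypes 0 of 11 were higher and 3 lower without AAI (7.84% and 9.33%), among them *Slc22a5*, the carnitine transporter, at 2.48 and 1.63, and 0 higher and 2 lower with AAI (6.32% and 7.74%). The median of the list was -0.17 with AAI in control, -0.14 with AAI in hKLF6OE, -0.025 between genotypes without AAI and -0.037 with AAI, and that of all genes was 0.0067, 0.045, -0.026 and 0.015. *Cyp4a14* was 0.00463 in control, 0.265 in control + AAI, 0.00518 in hKLF6OE and 0.0521 in hKLF6OE + AAI, higher with AAI in each genotype yet below the minimum. *Angptl4* stayed at 0.0709 to 0.103.

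In InjuredPT-A the same list had 8 of 13 higher and 2 lower, against 43.3% and 27% of all genes, and its median was 0.30 to 0.38 over mice against 0.15 to 0.19 for all genes. *Pdk4*, which spares glucose from oxidation, was 1.66 against 0.140 in normal PT of control + AAI and 1.44 against 0.0659 in hKLF6OE + AAI. *Plin2* was 3.06 against 0.619 and 1.499 against 0.421, *Pex11a*, a peroxisome division factor, 1.93 against 0.417 and 2.91 against 0.390, and *Cyp4a10* 1.68 against 0.902 and 1.94 against 0.854. The lower genes were *Slc22a5*, at 0.437 against 1.93 and 0.479 against 1.73, and *Acsl1*. *Ppara* itself was 1.43 and 1.30 there against 10.7 and 8.02. In InjuredPT-B 3 of 11 were higher and 1 lower (23.4% and 13.1%), with *Plin2* at 3.97 and 2.52. Against clusters outside PT 4 of 9 were higher and none lower (20.2% and 22%), and in PT-S3 4 of 10 were higher and 1 lower (10.4% and 12.4%).

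For the small lists that follow, the share of all genes called in either direction was 17.2% for hKLF6OE without AAI, 23% and 34.9% with AAI in control and hKLF6OE, and 14.1% between genotypes with AAI. It was 70.2% in InjuredPT-A, 36.5% in InjuredPT-B, 42.2% in PT against outside and 22.8% in PT-S3, and the medians of all genes were 0.17 in InjuredPT-A and 0.11 in InjuredPT-B. Peroxins, which build peroxisomes, were called in no contrast of condition in normal PT (4 passed), in 2 of 5 higher and 2 lower in InjuredPT-A (*Pex14* at 0.503 against 1.56 in control + AAI), in none of 4 in InjuredPT-B, and in 1 of 4 higher in PT and in PT-S3. Of ketone body enzymes, 0 of 5 were called without AAI between genotypes, 2 were lower with AAI in control, 3 with AAI in hKLF6OE and 2 between genotypes with AAI, and *Oxct1*, which burns ketone bodies, was 6.93 and 4.70 with AAI in control. In InjuredPT-A 1 of 5 was higher and 2 lower, and in InjuredPT-B 4 of 5 were lower. In PT 1 of 5 and in PT-S3 2 of 5 were higher. Of the 6 PT markers, 0 were higher and 3 lower in hKLF6OE without AAI, 1 was higher and 3 lower with AAI in each genotype, 0 were higher and 3 lower in hKLF6OE with AAI, while InjuredPT-A had 1 higher and 5 lower, and InjuredPT-B had 0 higher and 5 lower. *Slc34a1* was 58.4, 30.1, 45.4 and 29.5 in control, control + AAI, hKLF6OE and hKLF6OE + AAI. Between PT and outside 5 of 6 were higher, and in PT-S3 3 of 6 were lower.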
